A study of Mus musculus with 11 samples.

Results

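The genes described here are Cebpa, Cebpb, Cebpd, Cebpe, Spi1, Irf8 and Gfi1, a set of myeloid lineage transcription factors. They were chosen by name, with earlier results of these data known. All 7 had a row among the 23444 rows of the expression table, and all 7 were among the 11442 genes that passed a filter of 1 FPKM in at least 2 libraries. FPKM, a fragment count scaled by transcript length and library depth, can be compared between genes of unlike length.

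These factors set the identity of the white blood cells made from bone marrow progenitors. PU.1, the product of Spi1, is needed for most myeloid and B lymphoid fates, and C/EBPα, the product of Cebpa, directs progenitors to the granulocyte and monocyte path. C/EBPε and GFI1 act in neutrophil maturation, IRF8 favours monocytes and dendritic cells, and C/EBPβ and C/EBPδ are induced by cytokines and inflammation. BCR/ABL, a kinase made by a gene fusion in chronic myeloid leukaemia, expands granulocytic cells, and loss of IRF8 in mice is known to cause a disease that resembles this leukaemia.

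RNA was sequenced from 11 libraries in 7 groups. All came from bone marrow cells of C57BL/6 mice that had been selected on beads for Kit (CD117), a receptor of progenitor cells, and grown overnight with a cocktail of IL-3, IL-6, FLT3 and mSCF. The vector control had 1 library. Wild-type BCR/ABL cells, transduced with a virus that also encodes YFP and sorted for it, had 2 libraries each untreated, with imatinib (which blocks ABL kinases), with DFC+BCI (inhibitors of FOS and Dusp1 given together) and with all 3 drugs, for 4 h. BCR/ABL cells labelled c-Fos-/-Dusp1-/- had 1 untreated library and 1 with imatinib. The protocol names the mice of the latter as ROSACreERT2c-Fosfl/fl /Dusp1-/-, which carry an inducible Cre at a ubiquitously active locus, a floxed c-Fos and a Dusp1 null allele. Whether Cre was induced, how the vector control was made, and whether the duplicates came from separate animals are not given in the labels, so p-values may describe technical spread. The labels name no vehicle-treated group. The study asked whether the FOS and Dusp1 drugs act as loss of both genes does.

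Totals were 459559 to 529427 FPKM per library, and duplicates correlated at 0.986 to 0.990 across genes. Kit stood at 34.5 FPKM in the vector library and at 5.80 to 12.4 FPKM in the 10 BCR/ABL libraries. A list of 17 genes, called neutrophil granule genes below, summed to 11450 to 30433 FPKM over the 11 libraries. That list also holds the receptor gene Csf3r, and S100a8 and S100a9, whose products are cytosolic. S100a8 and S100a9 were the largest parts of its sum in the BCR/ABL libraries. Fos stood at 21.6 and 15.9 FPKM in the 2 libraries labelled deleted, against 4.81 to 7.42 FPKM in untreated and imatinib-treated wild-type cells. Dusp1 stood at 35.7 and 28.1 FPKM in the libraries labelled deleted, against 7.56 to 8.63 FPKM. Other wild-type libraries stood higher for Fos, at 125 FPKM with vector and at 28.0 to 32.4 FPKM with DFC+BCI, with or without imatinib. Dusp1 was at 16.9 FPKM with vector and at 102 to 133 FPKM with DFC+BCI. The levels in the libraries labelled deleted do not show the loss named in the label, so the words "library labelled deleted" are used below. A level for a whole gene cannot show whether part of that gene was deleted. The Y-linked gene Eif2s3y reached 35.1 and 36.2 FPKM in those 2 libraries and at most 0.0252 FPKM in the other 9, so the animals also differed in sex, which cannot be told apart from the labelled deletion.

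Gfi1 and Irf8 were the members that passed the test in drug comparisons, and Cebpb was the member with the highest level in any library, so the sequence around their starts is shown before the values. The sequences are from RefSeq (GRCm38.p6) and run from 250 bases before to 50 bases after a gene's start, read 5′ to 3′ on the gene's strand. Gfi1 and Irf8 each have more than 1 start in that table, which held 4 of the 7 members. Capitals mark letters that match a motif, and positions count from 1 at the start, with -1 the base before it.

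Gfi1 start 1, minus strand, chr5:107725756-107726055: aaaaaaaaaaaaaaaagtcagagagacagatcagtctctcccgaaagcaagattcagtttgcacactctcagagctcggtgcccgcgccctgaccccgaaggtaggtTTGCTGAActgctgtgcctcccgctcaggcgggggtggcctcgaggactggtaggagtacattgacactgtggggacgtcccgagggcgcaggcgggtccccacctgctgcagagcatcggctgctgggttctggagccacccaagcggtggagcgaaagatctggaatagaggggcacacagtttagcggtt
Irf8 start 1, plus strand, chr8:120736108-120736407: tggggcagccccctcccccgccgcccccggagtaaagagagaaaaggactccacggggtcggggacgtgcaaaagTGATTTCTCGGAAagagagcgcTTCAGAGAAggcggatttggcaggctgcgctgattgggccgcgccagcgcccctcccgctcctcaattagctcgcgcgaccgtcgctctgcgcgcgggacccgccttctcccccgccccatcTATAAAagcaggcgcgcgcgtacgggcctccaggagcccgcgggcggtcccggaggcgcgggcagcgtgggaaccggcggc
Cebpb, plus strand, chr2:167688665-167688964: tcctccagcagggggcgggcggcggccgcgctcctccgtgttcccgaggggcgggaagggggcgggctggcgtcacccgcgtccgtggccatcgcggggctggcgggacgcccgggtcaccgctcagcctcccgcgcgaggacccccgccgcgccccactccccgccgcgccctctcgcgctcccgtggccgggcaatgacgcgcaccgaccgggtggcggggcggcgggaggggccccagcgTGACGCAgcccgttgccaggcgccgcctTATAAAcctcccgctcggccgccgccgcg

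Both strands were searched for AP-1 (TGANTCA), CRE (TGACGTCA), CRE-like (TGACGCA), C/EBP (TTNNGNAA), GAS (TTCNNNGAA, the letters bound by STAT factors), ETS (GGAAGT, of the kind PU.1 binds), the GFI1 core (AAATCA) and the TATA box (TATAAA). The Gfi1 window held the C/EBP letters once, as TTGCTGAA on the reverse strand at position -143, a match that 40.7% of 32851 promoters had. The second Gfi1 start, at chr5:107724294-107724593, held no match. The Irf8 window held the GAS letters at -171 (TTCTCGGAA) and at -153 (TTCAGAGAA), and 8.3% of promoters had at least 1 such match. Its first GAS match overlapped a reverse-strand GFI1 core, read as TGATTT at -175, which 14.0% of promoters had, and a TATA box stood at -31 (13.6%). The second Irf8 start, at chr8:120738389-120738688, held a reverse-strand GFI1 core at -226, and neither GAS letters nor a TATA box. The Cebpb window was 80.7% G and C, against a median of 52.7% over all promoters. It held CRE-like letters at -7, which 2.12% of promoters had, and TATAAA at 22. A match describes letters and is no evidence of binding.

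In the wild-type BCR/ABL libraries Cebpb and Spi1 had the highest levels of the 7. Over all 11 libraries Spi1 (chromosome 2, 91082390 to 91115756 in GRCm38, plus strand, 5 exons) ranged from 91.8 to 185 FPKM, and stood within the top 3.23% to 6.94% of tested genes. Cebpb (chromosome 2, 167688915 to 167690418, plus strand, 1 exon) ranged from 66.8 to 242 FPKM. Cebpa (chromosome 7, 35119293 to 35121928, plus strand, 1 exon) varied least, from 26.3 to 50.8 FPKM. Irf8 (chromosome 8, 120736358 to 120756694, plus strand, 9 exons) varied most, from 12.5 to 83.3 FPKM, a ratio of 6.64. Cebpe (chromosome 14, 54710360 to 54712174, minus strand, 2 exons) ranged from 6.42 to 29.6 FPKM, and Gfi1 (chromosome 5, 107716657 to 107726036, minus strand, 6 exons) from 4.01 to 17.2 FPKM. Cebpd (chromosome 16, 15887286 to 15891031, plus strand, 1 exon) ranged from 6.29 to 20.4 FPKM and had the widest spread between duplicates, with an SD of 0.37 on the log2(FPKM + 1) scale against 0.10 for Gfi1 and for Irf8. Cebpa, Cebpb, Cebpd, Irf8 and Gfi1 each overlap another annotated gene. The sources used here do not give the strand setting of the counting, so reads of an overlapping gene may be included.

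**Figure D1:**
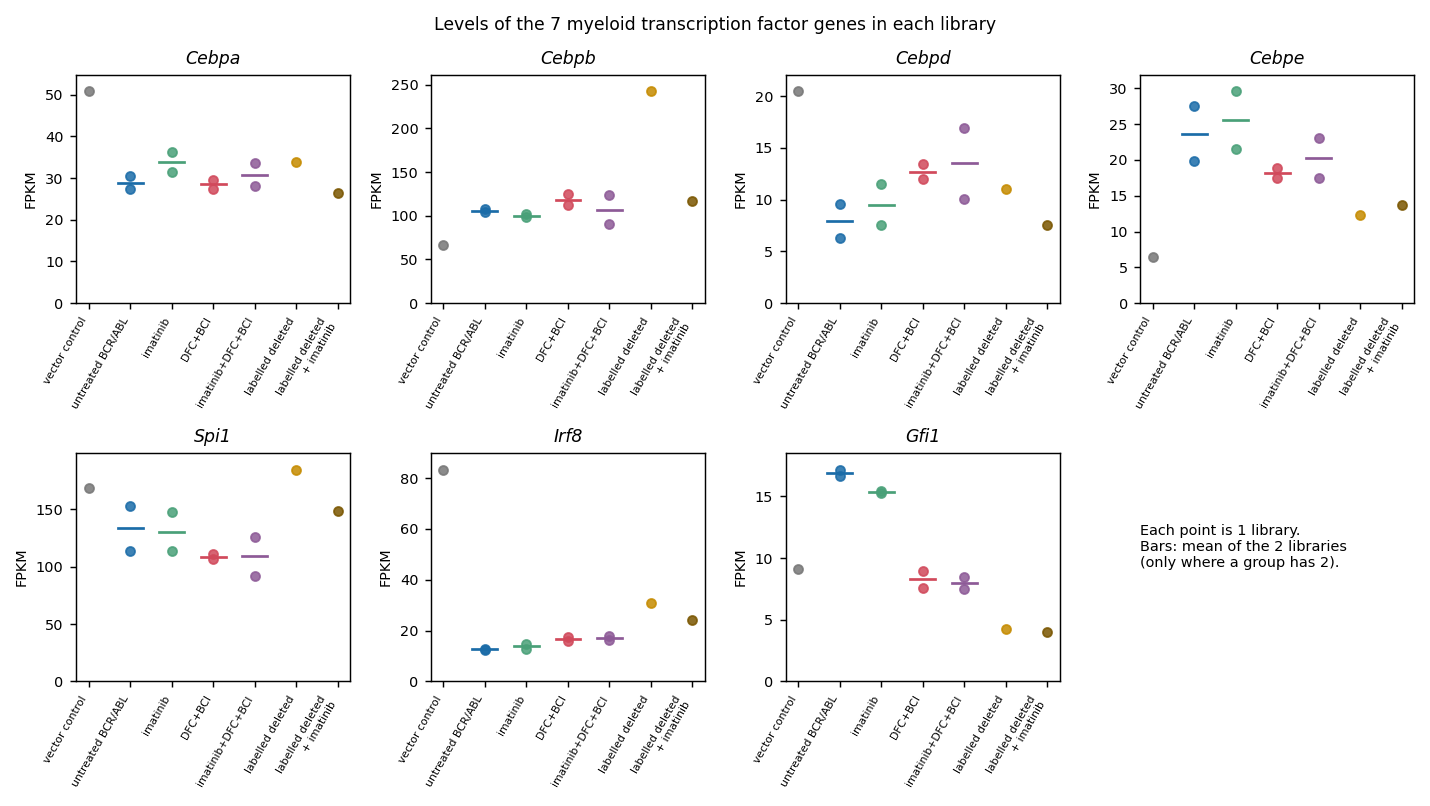
Level of each of the 7 transcription factor genes in FPKM (linear axes that start at 0) in each of the 11 libraries, by group; each point is 1 library and bars are means of 2 libraries. Irf8 was at 83.3 FPKM in the vector control and at 12.5 to 17.9 FPKM in wild-type BCR/ABL libraries, and Gfi1 fell to 7.47 to 8.99 FPKM with DFC+BCI, with or without imatinib.

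The comparison of untreated BCR/ABL cells with the vector control asked how the levels differed with the oncogene, and it rests on 1 vector library, so no test was made. A gene was called past the fold where its log2(FPKM + 1) lay at least 1 from that of every library on the other side and the higher side reached 5 FPKM. By that rule 1 member was higher (3.32% of all tested genes were) and 2 were lower (4.68%). Irf8 stood at 83.3 FPKM in the vector library and at 12.9 and 12.5 FPKM in untreated BCR/ABL cells. Both BCR/ABL libraries lay far below the vector library, with a log2 difference of -2.62, the furthest of the 7. Cebpe, a driver of late granule genes, stood at 6.42 FPKM in the vector library and at 27.5 and 19.9 FPKM in BCR/ABL cells. Both BCR/ABL values were higher, by 1.72 on the log2 scale. Cebpd stood at 20.4 FPKM in the vector library and at 9.58 and 6.29 FPKM in BCR/ABL cells, a log2 difference of -1.29 that only just met the rule against the first of them (-1.02).

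The other 4 members differed by less than the rule required. Cebpa was at 50.8 FPKM in the vector library and at 30.5 and 27.4 FPKM in BCR/ABL cells (-0.79), and Spi1 at 169 FPKM against 153 and 114 FPKM (-0.35). Cebpb was at 66.8 FPKM against 108 and 104 FPKM (0.66), and Gfi1 at 9.12 FPKM against 17.2 and 16.6 FPKM (0.82). For these 4 genes neither BCR/ABL library overlapped the vector value. In bulk RNA, fewer cells of a type and less RNA per cell cannot be told apart.

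Wild-type BCR/ABL cells given imatinib were set against the same vector library, with 1 member higher (2.53% of all genes were) and 1 lower (4.43%). Cebpe was higher at 21.6 and 29.6 FPKM (1.82) and Irf8 lower at 12.8 and 14.9 FPKM (-2.51). Cebpd, at 7.53 and 11.5 FPKM, was past the fold against the vector value in the first library (-1.33) and not in the second (-0.78).

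Within a library, the ratio of Irf8 to Gfi1 was 9.13 in the vector control and 0.751 and 0.754 in untreated BCR/ABL cells. The monocyte and dendritic factor was thus the more abundant of the pair with vector, and the neutrophil factor was the more abundant with BCR/ABL. The ratio of Cebpe to Cebpa was 0.127 in the vector library and 0.902 and 0.726 in BCR/ABL cells, and that of Cebpb to Cebpa was 1.32 against 3.55 and 3.79.

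**Figure D2:**
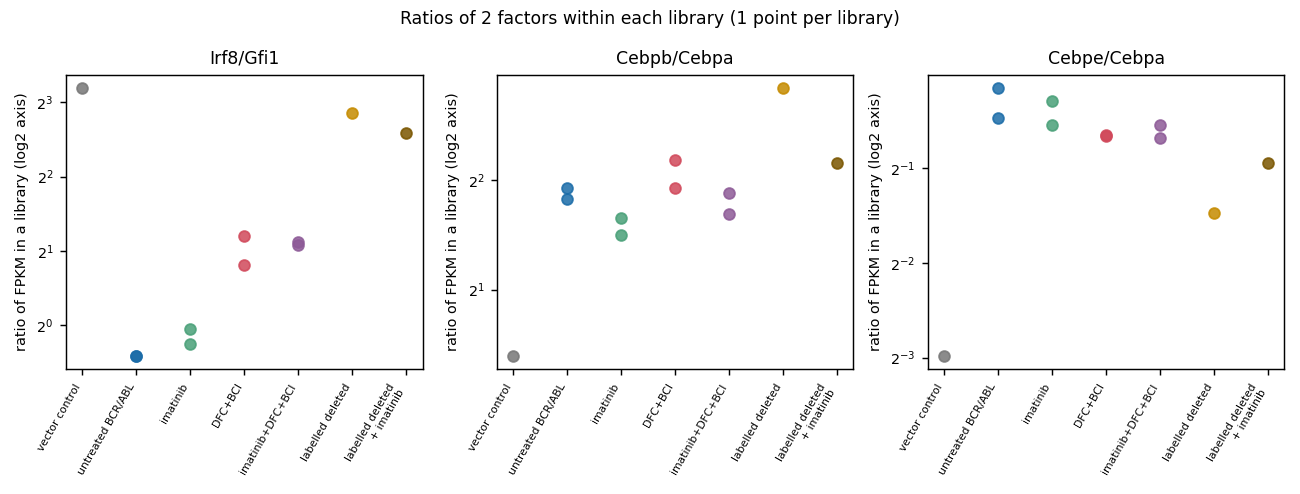
Ratio of the FPKM of 2 factors within each library (log2 axis), for Irf8 over Gfi1, Cebpb over Cebpa and Cebpe over Cebpa; each point is 1 library. The Irf8 to Gfi1 ratio was 9.13 in the vector control, 0.751 to 0.964 in untreated and imatinib-treated wild-type cells, 1.76 to 2.29 in the groups given DFC+BCI, and 7.22 and 5.98 in the libraries labelled deleted.

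Genes known to depend on these factors differed in both directions between the vector and BCR/ABL libraries. Of all tested genes 3.32% were past the fold upward with BCR/ABL and 4.68% downward. Of 17 neutrophil granule genes 9 were higher and 3 lower, with a median log2 difference of 1.79 against 0.00 over all genes. The largest differences among those higher were in Camp (4.10), Ngp (3.83), Ltf (3.57) and Mmp9 (3.44). The 3 lower were Lyz2 (-2.11), Mpo (-1.64) and Csf3r (-2.58), the last a receptor gene and not a granule gene. Of 16 genes known as targets of PU.1 or IRF8, 3 were lower and 0 higher (median -0.22), namely Ly86 (-2.19), Csf1r (-1.98), the receptor of monocyte growth factor, and Ctss (-1.50). Genes that GFI1 is known to repress were higher in 2 of 8 cases and lower in 0 (median 0.45). Positive differences were found for 7 of the 8, while Gfi1 itself was also higher (0.82). Inflammatory genes known as C/EBPβ targets went both ways, with 3 of 9 higher and 2 lower (median 0.69). Summed over the 10 listed, these targets were lower with BCR/ABL (511 and 541 FPKM, against 1015 with vector), while Cebpb was higher (0.66). Among regulators of C/EBP factors, Id1, an inhibitor of DNA binding by basic helix-loop-helix proteins, was higher by 2.27.

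Markers of other cells moved with these differences, where 3.32% of all genes were past the fold upward and 4.68% downward. The 17 granule genes summed to 11450 FPKM in the vector library and to 28069 and 29043 FPKM in untreated BCR/ABL cells. With vector, S100a8 and S100a9 were at 1178 and 867 FPKM, so most of that sum came from other genes of the list. The 6 mast cell and basophil markers summed to 1893 FPKM against 544 and 570 FPKM, and 5 of the 6 were past the fold downward. Of 7 monocyte and macrophage markers 4 were lower, among them Cx3cr1, at 30.1 FPKM against 0.281 and 0.314 FPKM. The sum of the monocyte and macrophage markers went the other way, at 1245 FPKM against 1444 and 1407 FPKM, and its member Ly6c2 was at 611 FPKM against 1203 and 1174 FPKM. The erythroid markers summed to 81.8 FPKM against 328 and 330 FPKM, and 3 of the 7 tested were higher, namely Hbb-bt (6.40), Hba-a2 (3.74) and Car1 (2.45). Globin genes have near-identical copies, so their reads may be divided between copies. The 6 B lymphoid markers summed to 14.4 FPKM against 4.44 and 3.06 FPKM, and the 6 T lymphoid markers to 1.69 FPKM against 1.66 and 1.38 FPKM. The part of cell composition in the levels of the 7 factors was not tested.

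Imatinib for 4 h changed none of the 7 by the test, in which 2.11% of all genes were called (241 genes by limma, and 1721 at an unadjusted p under 0.05). Irf8 was at 12.8 and 14.9 FPKM with imatinib and at 12.9 and 12.5 FPKM without it (log2 fold change 0.11, 95% interval -0.10 to 0.32, limma adjusted p = 0.675). 1 imatinib value lay between the untreated ones and the other above both. Gfi1 was at 15.3 and 15.4 FPKM against 17.2 and 16.6 FPKM, lower in both libraries by less than the test could call (-0.13, interval -0.35 to 0.09, adjusted p = 0.628). Cebpa was at 31.5 and 36.1 FPKM against 30.5 and 27.4 FPKM, higher in both libraries (0.22, interval -0.04 to 0.47, adjusted p = 0.442). Cebpb was at 98.7 and 102 FPKM against 108 and 104 FPKM, lower in both (-0.08, interval -0.39 to 0.24).

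Cebpd, Cebpe and Spi1 overlapped between the imatinib and untreated libraries. Cebpd was at 7.53 and 11.5 FPKM against 9.58 and 6.29 FPKM, and its interval was the widest, from -0.43 to 0.90. Cebpe was at 21.6 and 29.6 FPKM against 27.5 and 19.9 FPKM (interval -0.37 to 0.58). Spi1 was at 113 and 148 FPKM against 153 and 114 FPKM (interval -0.50 to 0.44). The intervals leave changes of these sizes undetected.

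Among genes linked to the factors, Id1 fell with imatinib, from 82.5 and 64.4 FPKM to 12.2 and 17.2 FPKM (log2 fold change -2.25, limma adjusted p = 0.00239). It was the only 1 of 9 C/EBP regulators that the test called. Egr1, an immediate early gene known to favour macrophage fate, fell by 1.24 (adjusted p = 0.00243) and was the only 1 of 25 other lineage factors. Of 9 inflammatory genes known as C/EBPβ targets, Il6 (-1.06, adjusted p = 0.000599) and Ccl3 (-0.90, adjusted p = 0.00346) fell. None of the granule, PU.1 and IRF8 target or GFI1-repressed genes was called (0 of 17, 0 of 16 and 0 of 8). Over all genes 2.11% were called.

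DFC+BCI lowered Gfi1 and raised Irf8, and moved none of the other 5 past the test. With DFC+BCI 17.8% of all genes were called higher and 18.4% lower, so 1 member in each direction is near or below the share over all genes. Gfi1 was at 7.56 and 8.99 FPKM with DFC+BCI, against 17.2 and 16.6 FPKM untreated. Both treated libraries were far below both untreated ones, and the mean fell from 16.9 ± 0.372 to 8.28 ± 1.01 FPKM (SD, n = 2 each). The log2 fold change was -0.95 (SE 0.0934, limma adjusted p = 0.000401). Irf8 was at 17.3 and 15.8 FPKM with DFC+BCI, against 12.9 and 12.5 FPKM. Both treated libraries were higher, by 0.36 (SE 0.0887, limma adjusted p = 0.0186). The Irf8 call was lost without the first DFC+BCI library (adjusted p = 0.123) and without the first or the second untreated library (adjusted p = 0.0554 and 0.0665).

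Cebpd was at 13.5 and 11.9 FPKM with DFC+BCI, above both untreated libraries at 9.58 and 6.29 FPKM. Its log2 fold change of 0.64 (interval -0.03 to 1.3, limma adjusted p = 0.119) did not pass with all libraries in the fit, and passed when only the groups compared entered the fit (adjusted p = 0.0448). Cebpe was at 17.5 and 18.8 FPKM, below both untreated libraries at 27.5 and 19.9 FPKM (-0.35, interval -0.82 to 0.12). Spi1 was at 111 and 107 FPKM, below 153 and 114 FPKM (-0.27, interval -0.74 to 0.20). Cebpb was at 125 and 112 FPKM, above 108 and 104 FPKM (0.16, interval -0.16 to 0.47). Cebpa was at 27.4 and 29.6 FPKM, both between the untreated 30.5 and 27.4 FPKM (-0.02, interval -0.28 to 0.24).

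Some basic leucine zipper genes related to the C/EBP family, or able to pair with it, rose with DFC+BCI. The list of 9 also holds Cebpz, which is not a leucine zipper gene despite its symbol and did not pass the test. Of the 9, 4 rose and 0 fell, with a median log2 fold change of 0.25 against -0.035 over all genes. Of all genes 17.8% rose and 18.4% fell. Ddit3, which encodes CHOP, a partner that blocks C/EBP binding and is induced by stress, went from 18.6 and 16.5 FPKM to 169 and 158 FPKM (log2 fold change 3.15, SE 0.0839, limma adjusted p = 2.63e-06). Its FPKM with DFC+BCI was thus above that of every one of the 7 members in the same libraries. Nfil3 rose by 1.27, Atf4, a factor of the integrated stress response, by 0.69 and Cebpg, a C/EBP with no activation domain, by 0.42.

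Of 9 regulators of C/EBP factors, 3 rose and 3 fell (median -0.06), where 17.8% and 18.4% of all genes did. Trib3 rose by 2.17, and Trib1, whose product directs C/EBPα to degradation, by 1.68 (limma adjusted p = 6.04e-05), from 1.41 and 1.49 FPKM to 7.68 and 6.13 FPKM. Id2 fell by 0.93 and Celf1, which controls translation of C/EBPβ isoforms, by 0.35. RNA levels do not show C/EBPα or C/EBPβ protein.

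Of 25 other lineage factors, 8 rose and 6 fell (median -0.08), where 17.8% and 18.4% of all genes did. Egr1 rose by 1.93, and Klf4, which is known in monocytes, by 1.33. Myb, a factor of progenitor growth, fell by 0.80 and Gata2, of stem cells and mast cells, by 0.69.

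Granule genes and PU.1 or IRF8 targets fell or did not pass, and most of the C/EBPβ targets rose. Over all genes 17.8% were called higher and 18.4% lower. The falls among PU.1 or IRF8 targets, and both counts for genes that GFI1 represses, are near those shares. Of 17 neutrophil granule genes 9 fell and 0 rose (median -0.27), among them S100a8 (-0.79), Ctsg (-0.70) and Ms4a3 (-0.66). Of 16 targets of PU.1 or IRF8, 4 fell and 0 rose (median -0.16), namely the Fc receptors Fcgr3 (-0.70) and Fcgr1 (-0.65), the oxidase subunit Cybb (-0.44) and Ctsc (-0.30). Of 8 genes that GFI1 is known to repress, 2 rose and 2 fell (median -0.09). Cdkn1a (0.75) and Egr2 (0.44) rose, and Id2 (-0.93) and Meis1 (-0.39) fell. Of 9 inflammatory genes known as C/EBPβ targets 6 rose and 1 fell (median 0.37), with Ptgs2 up by 2.02 and Il1b by 0.63 and Il6 down by 0.63.

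Markers of several cell types were lower with DFC+BCI beside these changes. The granule genes summed to 18148 and 18994 FPKM against 28069 and 29043 FPKM. S100a8, at 6868 and 6841 FPKM against 11121 and 12712 FPKM, was the largest part of that sum. S100a9, at 5313 and 5804 FPKM against 8255 and 8090 FPKM, was the next. Camp, at 162 and 177 FPKM against 198 and 171 FPKM, overlapped. The mast cell and basophil markers summed to 472 and 452 FPKM against 544 and 570 FPKM. Kit was at 6.66 and 6.91 FPKM against 11.5 and 11.7 FPKM. Of 7 monocyte and macrophage markers 3 fell and 0 rose, where 18.4% and 17.8% of all genes did. The part of these in the levels of Gfi1 and Irf8 was not tested.

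**Figure D3:**
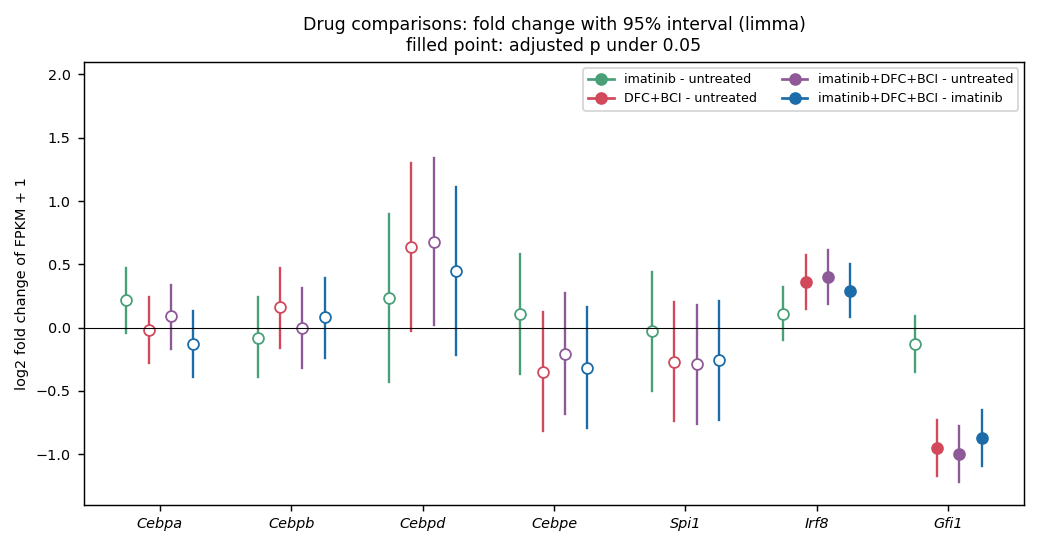
Fold change of each member on the log2(FPKM + 1) scale with its 95% interval from limma, for 4 drug comparisons (colours); filled points passed an adjusted p of 0.05. Gfi1 (-0.87 to -1) and Irf8 (0.29 to 0.40) passed in the 3 comparisons that add DFC+BCI, and no member passed with imatinib alone.

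With all 3 drugs the members stood close to their levels with DFC+BCI. This comparison shares its untreated libraries with the previous comparisons, so the results are not independent. Gfi1 was at 8.49 and 7.47 FPKM, below both untreated libraries (log2 fold change -1, SE 0.0934, limma adjusted p = 0.000332). Irf8 was at 17.9 and 16.3 FPKM, above both untreated libraries (0.40, SE 0.0887, adjusted p = 0.0134). The Irf8 call was lost without the second untreated library (adjusted p = 0.0563) and without the first library of the 3 drugs (adjusted p = 0.0790). Of all genes, 17.2% were called higher and 15.6% lower, and 1 member was called in each direction.

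In the group given 3 drugs the first library was above the second for each of the 7 members. The same held in the untreated group, and with imatinib the second library was above the first for each of the 7. The higher library also had the larger total each time, at 492374 against 464641 FPKM with 3 drugs. Untreated totals were 527875 against 489904 FPKM, and those with imatinib 529427 against 489112 FPKM. Cebpb was at 124 and 90.7 FPKM, on both sides of the untreated values (0.00, interval -0.32 to 0.31). Cebpd was at 16.9 and 10.1 FPKM, above both untreated libraries (0.68, interval 0.02 to 1.34, limma adjusted p = 0.107). Spi1 was at 126 and 91.8 FPKM (-0.29, interval -0.76 to 0.18), Cebpe at 23.1 and 17.5 FPKM (-0.21, interval -0.68 to 0.27) and Cebpa at 33.6 and 28.1 FPKM (0.09, interval -0.17 to 0.34). The last 3 overlapped the untreated libraries.

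Adding DFC+BCI to imatinib was also compared with imatinib alone. Gfi1 fell from 15.3 and 15.4 FPKM to 8.49 and 7.47 FPKM (log2 fold change -0.87, SE 0.0934, limma adjusted p = 0.000604), with no overlap. Irf8 went from 12.8 and 14.9 FPKM to 17.9 and 16.3 FPKM (0.29, SE 0.0887, adjusted p = 0.0424). That rise rests near the threshold: it passed in 4 of 15 alternatives, with adjusted p from 0.0299 to 0.208, and with a block on the column letters, added after the data were seen, it was 0.110. In this comparison 18.6% of genes were called higher and 16.0% lower, with 1 member in each direction. Ddit3 (3.14), Trib3 (2.02) and Trib1 (1.39) rose here too, and Id1, lowered by imatinib, rose by 1.22 (adjusted p = 0.00256).

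Adding imatinib to DFC+BCI changed no member by the test (0 of 7), with 0.114% of all genes called (13 genes by limma, and 1053 at an unadjusted p under 0.05). The log2 fold changes ran from -0.16 for Cebpb to 0.14 for Cebpe. The interaction, which tests whether imatinib acted differently with and without DFC+BCI, called no member (0 of 7) and 0.149% of all genes (17 by limma, 1409 at an unadjusted p under 0.05). For Gfi1 it was 0.09 (interval -0.23 to 0.40) and for Irf8 -0.07 (interval -0.37 to 0.22). Among 25 other lineage factors Egr1 had a positive interaction (1.19, limma adjusted p = 0.0480).

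In the untreated library labelled deleted, Cebpb and Irf8 were past the fold upward and Gfi1 downward, against untreated wild-type BCR/ABL cells. With 1 library there is no replicate check, and over all genes 3.42% were higher and 2.02% lower, with a median difference of -0.13. Cebpb was at 242 FPKM, against 108 and 104 FPKM, above every other library of the series (1.19). Irf8 was at 30.9 FPKM, against 12.9 and 12.5 FPKM (1.22), and still below the vector library at 83.3 FPKM. Gfi1 was at 4.28 FPKM, against 17.2 and 16.6 FPKM (-1.76), and below the 9.12 FPKM of the vector library. Scaling the libraries by the median of ratios gave 1.36 for Cebpb, 1.38 for Irf8 and -1.62 for Gfi1.

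The other 4 members did not meet the rule. Cebpe was at 12.3 FPKM against 27.5 and 19.9 FPKM (-0.88), which is past the fold against the first untreated library (-1.10) and not against the second (-0.65). Spi1 was at 185 FPKM against 153 and 114 FPKM (0.48), Cebpd at 11 FPKM against 9.58 and 6.29 FPKM (0.45), and Cebpa at 34.0 FPKM against 30.5 and 27.4 FPKM (0.23). Cebpe was below both wild-type libraries, and Spi1, Cebpd and Cebpa were above both.

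With imatinib, Gfi1 alone was past the fold against wild-type cells given imatinib, among 1.28% of all genes that were lower and 1.88% that were higher. It was at 4.01 FPKM in the library labelled deleted against 15.3 and 15.4 FPKM (-1.70). Irf8 was at 24.0 FPKM against 12.8 and 14.9 FPKM (0.76), above both but under the fold. Cebpb was at 117 FPKM against 98.7 and 102 FPKM (0.22). Cebpe was at 13.7 FPKM against 21.6 and 29.6 FPKM (-0.84) and Spi1 at 149 FPKM against 113 and 148 FPKM (0.20). Cebpa was at 26.3 FPKM against 31.5 and 36.1 FPKM (-0.35), and Cebpd at 7.52 FPKM against 7.53 and 11.5 FPKM (-0.28). Cebpa and Cebpe were below both wild-type libraries, as was Cebpd by a narrow margin, and Spi1 was narrowly above both.

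Between the 2 libraries labelled deleted, Cebpb was lower with imatinib, at 117 against 242 FPKM (-1.05), among 0.271% of all genes that were lower. Under quantile normalization no member met the rule downward in that comparison. The other 6 differed by -0.50 (Cebpd) to 0.15 (Cebpe). In wild-type cells the Cebpb difference with imatinib was -0.08, and whether the 2 differ was not tested. Each library labelled deleted stands alone.

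**Figure D4:**
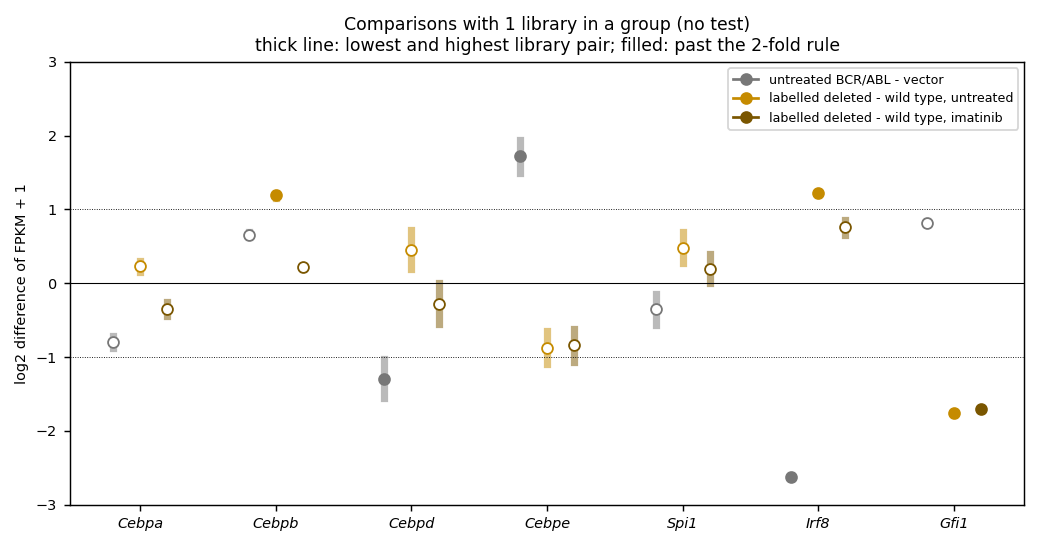
Difference of log2(FPKM + 1) for each member in 3 comparisons that rest on 1 library in a group, with no test; thick lines run from the lowest to the highest pair of libraries, dotted lines mark a difference of 1, and filled points met the rule for both pairs. Gfi1 was lower in both libraries labelled deleted (-1.76 and -1.70), and Irf8 was lower with BCR/ABL than with vector (-2.62) and higher in the untreated library labelled deleted (1.22).

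The drugs and the labelled deletion can be set side by side for the members, as the study asked, although both are read against the same untreated libraries and are therefore not independent. For Gfi1 the log2 differences were -0.95 with DFC+BCI and -1.76 in the library labelled deleted, and for Irf8 they were 0.36 and 1.22. For Cebpb they were 0.16 and 1.19, for Cebpd 0.64 and 0.45, for Cebpe -0.35 and -0.88, for Spi1 -0.27 and 0.48, and for Cebpa -0.02 and 0.23. Of these 14 values, the drug effects on Gfi1 and Irf8 passed a test, and those of the library labelled deleted have none.

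Linked genes differed between those settings too. In the untreated library labelled deleted 3.42% of all genes were past the fold upward and 2.02% downward. Of 17 granule genes, 2 were higher and 9 lower in the untreated library labelled deleted (median -1.24), with Mpo (-3.09), Elane (-2.23), Chil3 (-1.70) and Ltf (-1.67) furthest down and Lyz2 (1.62) and Mmp8 (1.26) up. Of 16 PU.1 or IRF8 targets 3 were higher and 0 lower (median 0.54), namely the growth factor receptors Csf2ra (1.31) and Csf1r (1.27) and the protease Ctss (1.24). Of 8 genes that GFI1 is known to repress, Csf1 (1.47) and Egr2 (1.26) were higher and none was lower (median -0.39). None of the 9 genes of the leucine zipper list met the rule (median -0.26), and Ddit3 was at 28.6 FPKM against 18.6 and 16.5 FPKM. Among 9 C/EBPβ targets, Saa3 (1.88), an acute phase gene, was higher and Il6 (-1.48) lower.

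Cell type markers also differed there. Without drug 3.42% of all genes were past the fold upward and 2.02% downward, and with imatinib 1.88% and 1.28%. The 6 mast cell and basophil markers summed to 95.7 and 129 FPKM in the libraries labelled deleted, against 544 to 609 FPKM in untreated and imatinib-treated wild-type cells, and all 6 were past the fold downward in both comparisons. Of 7 monocyte and macrophage markers 3 were higher and 0 lower without drug, with Cd14 at 186 FPKM against 30.2 and 30.9 FPKM, while their sum was 1332 FPKM against 1444 and 1407 FPKM. The granule genes summed to 20326 and 21240 FPKM. The part of cell composition, of sex and of the animal in the factor levels was not tested.

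Across the 11 libraries the members did not move as 1 group. On the log2(FPKM + 1) scale the correlation of Irf8 with Cebpe was -0.92 over 11 libraries and -0.34 over the 8 replicated libraries, so it rests largely on the lone libraries. Irf8 with Gfi1 was -0.47 over 11 and -0.91 over 8, and Spi1 with Cebpe was -0.37 over 11 and 0.93 over 8. These are descriptions of points that share groups, and the sign differed between the sets for the last pair. The shared shift of all members between some duplicates, given above, also enters the values over 8.

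Among 7993 named genes with a mean of at least 5 FPKM, the genes most like each member over the 11 libraries by Pearson correlation were as follows. For Gfi1 they were Tfrc (0.985), Ifitm6 (0.982) and Srsf1 (0.980), and for Irf8 Ctnna1 (0.989), Scpep1 (0.987) and Hexa (0.987). For Cebpe they were Eif5a (0.989), Glrx5 (0.987) and Psmb2 (0.985), and for Spi1 Cenpb (0.981), Cst3 (0.976), itself a listed PU.1 target, and Gnai2 (0.972). Cebpd was most like Apba3 (0.962), Vps51 (0.949) and Tbc1d22a (0.933). Cebpb was most like Basp1 (0.941), the complement receptor gene C5ar1 (0.940) and Atf5 (0.919), a gene of the leucine zipper list, and Cebpa like Ccdc28b (0.933), Nbeal2 (0.932) and Ptdss2 (0.929). Cebpa and Cebpb thus had the weakest best matches of the 7.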

How the data were processed

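The authors used TopHat, Cufflinks and the mm10 build, per the submitters' processing notes, and no versions are stated. The deposited values were taken as FPKM from the authors, because Cufflinks writes values of this form and no unit is named in the header. Per the labels' protocols, the mRNA library kit kept strand. The table holds no read counts, so depth is unknown and no counting interval is given. The most common ratio among values under 0.08 FPKM was 0.564 between the vector and the first untreated library and 0.856 to 1.13 for the others, which is a rough guide to relative depth. Of 23444 rows, 5019 are 0 in all libraries. An exact 0 can be a failed estimate, and 27 symbols had become dates.

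Tests ran on log2(FPKM + 1), a scale that understates the change of a low gene. The 11442 genes with 1 FPKM in 2 libraries entered 2-sided limma-trend tests (R 4.3.3, limma 3.58.1), with p adjusted by Benjamini-Hochberg over all 11442 and a threshold of 0.05. All 11 libraries entered 1 fit by group, with 4 residual and 3.2 prior degrees of freedom. The script was tested on simulated data. Groups were taken from the labels. The 2 untreated columns bear no mark and the treated ones bear letters, so columns were assigned to groups and "first" and "second" follow the order of columns. Doses are not given, because their unit in the labels is in doubt.

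The 7 members and the 16 gene lists were chosen with earlier results of these data known. Text names the 7 members, up to 4 called genes per list by size, 3 genes most like each member (predicted genes left out), and Kit, Fos and Dusp1. Chosen after values were seen were Eif2s3y, Xist, Cx3cr1, Ly6c2, Cd14, Cebpz, the uncalled Ddit3 value, and S100a8 and S100a9 with vector. So were S100a9 and Camp with DFC+BCI. So were, beyond the 4 largest of their lists, Csf3r, Lyz2, Mpo and Mmp8 (granule list) and Egr2 and Zeb2 (lineage factors). Some genes stand in 2 lists, such as Id2 and Csf1r. A result on 1 listed gene is not reported here. The markers Siglecf and Adgre1 were not found under those names. Gene positions are from GENCODE (GRCm38). Alternatives were another pseudocount (0.1), no filter or 5 FPKM, quantile normalization, median-of-ratios scaling, a fit of the compared groups only, and leaving out each of 8 replicates.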

Additional observations from a re-analysis of the deposited data

Results flagged for a closer look

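Cebpa moved in opposite directions with imatinib in the wild-type cells and in those labelled deleted. Its log2 difference was 0.22 in wild-type cells and -0.36 between the 2 libraries labelled deleted. The labelled deletion went with a Cebpa difference of 0.23 without drug and -0.35 with imatinib, which uses the same libraries. Cebpd likewise differed by 0.45 without drug and -0.28 with imatinib. These differences between effects were not tested. Each group labelled deleted has 1 library, and each difference lies within a 2-fold change.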

How the results depend on the processing

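The fall of Gfi1 kept its call in 14 of 14 alternatives with DFC+BCI (adjusted p 0.000175 to 0.00431), 14 of 14 with all 3 drugs (0.000125 to 0.00353) and 15 of 15 when DFC+BCI was added to imatinib (0.00021 to 0.00683), and no direction of a called member reversed. The rise of Irf8 kept its call in 11 of 14 (0.00793 to 0.123), 12 of 14 (0.00745 to 0.0790) and 4 of 15 (0.0299 to 0.208). When DFC+BCI was added to imatinib, the number of members called higher went from 1 to 0 with no filter, with quantile normalization, with only the compared groups in the fit, and with a replicate block on the column letters; leaving out single replicates gave 0 to 1. With DFC+BCI alone it was 2 when only the compared groups entered the fit (Cebpd added), and 0 to 1 over the left-out replicates, as with all 3 drugs. Quantile normalization left 0 members lower with imatinib in the libraries labelled deleted. The causes were not tested.

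No paired analysis was possible because the columns carry no replicate number of the labels. A block on the letters a and b, tried after seeing the data over the 3 treated groups, gave 0 members higher; deviations of same-lettered libraries correlated at -0.14, -0.09 and -0.07. Over all genes, leaving out a replicate moved the imatinib calls from 55 higher and 186 lower to 11 to 20 and 44 to 92, and other settings gave 4 to 63 and 23 to 183. DFC+BCI calls went from 2041 higher and 2107 lower to as few as 1268 and 866. With all 3 drugs, 1790 lower calls became 961 at the fewest, and with DFC+BCI added to imatinib 1828 became 1051. Adding imatinib to DFC+BCI gave 0 to 7 higher and 0 to 15 lower calls, and the interaction 0 to 13 and 1 to 9. With 2 libraries per group, changes within the printed intervals were not detectable.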

Other observations

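Other lineage genes also stood apart in the libraries labelled deleted, against untreated wild-type cells. Procr, a receptor gene that marks blood stem cells, was at 74.7 and 52.2 FPKM in them and at 4.77 to 8.66 FPKM in wild-type BCR/ABL cells. Most of the stem and progenitor markers did not share this rise, though their sum was higher. It was 731 FPKM in the untreated library labelled deleted, against 533 and 552 FPKM in untreated wild-type BCR/ABL cells. With imatinib it was 629 FPKM against 547 and 513 FPKM, and the vector library had 599 FPKM. Of 7 tested, 1 was past the fold upward without drug (3.42% of all genes were) and only 2 had a positive difference (median -0.40). With imatinib, against wild-type cells given imatinib, 2 were positive (median -0.26). Kit was at 5.80 FPKM in the untreated library labelled deleted, against 11.5 and 11.7 FPKM. Of 25 other lineage factors 4 were higher and 2 lower in the untreated library labelled deleted, where 3.42% and 2.02% of all genes were. Klf4 (log2 difference 2.11), Mitf (1.31), Egr2 (1.26) and Zeb2 (1.17) were higher, and Gata2 (-1.43) and Gata1 (-1.26), which act in mast cell, erythroid and megakaryocyte fates, were lower. The vector library stood near that library for Klf4 (15.5 FPKM against 17.3 FPKM) and Zeb2 (33.8 against 38.3 FPKM). It stood further from it for Mitf (5.85 against 13.1 FPKM), Egr2 (4.55 against 12.45 FPKM), Gata2 (62.7 against 18.2 FPKM) and Gata1 (11.6 against 6.01 FPKM). The ratio of Spi1 to Gata1 was 30.8 and 18.2 in the libraries labelled deleted and 5.68 to 9.06 in the 8 wild-type BCR/ABL libraries. In the vector library it was 14.5. Of 5 eosinophil markers tested, Ear1 (3.24) and Ear2 (2.43) were higher and Prg2 (-3.14) was lower; Ear genes have near-identical copies, so their reads may be divided between copies. The difference in sex and animal cannot be told apart from the labelled deletion in these values.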
